A study of Drosophila melanogaster with 2 samples.

Results

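Heat shock proteins and their constitutive cognates are molecular chaperones, and the 10 genes considered here are Hsp22, Hsp23, Hsp26, Hsp27, Hsp60A, Hsp68, Hsp83, Hsc70-3, Hsc70-4 and Hsc70-5 of Drosophila melanogaster. Each was looked up by symbol or gene ID in the annotation of the array and read from its brightest probe set that names 1 gene. On that rule 7 of the 10 genes could be read, out of 10843 genes that have such a probe set on the array. Hsp22 is named only by probe sets that also name CG4456, and Hsp23 and Hsp83 were not analysed here. The study set 1 array of embryos homozygous for a tdf mutation against 1 array of yw embryos, to find genes regulated by TDF, a DNA-binding transcription factor also called Apontic (gene apt). Mutants were recognised with the balancer chromosome CyOact-GFP. The yw embryos, which carry the body and eye colour markers y and w, came from another stock, and what is due to tdf and what to the rest of the genetic background cannot be told apart. Embryos of both genotypes were aged at 25 °C to 16 h after egg laying, and total RNA of whole embryos was labelled. The sources used here do not give the tdf allele, the number of embryos or how long eggs were collected.

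Chaperones bind unfolded stretches of other proteins. The small heat shock proteins Hsp22, Hsp23, Hsp26 and Hsp27 carry an alpha-crystallin domain and hold unfolding proteins without using ATP, and they pass them on to the ATP-driven Hsp70 and Hsp60 machines. In Drosophila their genes, like Hsp68 and the Hsp70 genes, are switched on strongly by heat through the heat shock factor Hsf, and they also have developmental expression: Hsp26 and Hsp27 are transcribed without heat in the ovary, where the mRNA is loaded into the egg. The Hsc70 cognates are Hsp70 family members that are made in unstressed cells, Hsc70-4 in the cytosol, Hsc70-3 (also called BiP) in the endoplasmic reticulum and Hsc70-5 in mitochondria. Hsp60A forms the mitochondrial chaperonin, and Hsp83 is the cytosolic Hsp90.

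All values are MAS5 signals, linear units of array brightness scaled so that both arrays have the same trimmed mean, and each is a single measurement with no replicate. No p-value or standard error between genotypes can therefore be had. Signals under a floor of 97.3 (the 40th percentile over both arrays) were set to the floor, then the log2 ratio of tdf over yw was taken, and a gene was called measured when it reached the floor on at least 1 array. The only spread available is that between probe sets of the same gene, whose log2 ratios had an SD of 0.53 (278 genes), equal to 1.45-fold. It describes the arrays and not biological variation. The median log2 ratio of the 7639 measured genes was 0.03. The apt probe set had 1051 on the array labelled tdf and 979 on the yw array. The sources used here do not place that probe set relative to the lesion, so its level says nothing about the label. The marker gene y of the yw stock had 628 on the array labelled tdf and 563 on the yw array, 1.12-fold higher on the array labelled tdf. The y allele is not given either, so the level of y says nothing about the label. Of 8 late embryo markers with a probe set, 7 were measured. The cuticle gene TwdlM had 57775 on the array labelled tdf and 41034 on the yw array, and the neuronal gene elav had 228 (tdf) and 252 (yw). Cpr47Ef, another cuticle gene, had 96.5 on the array labelled tdf, below the floor, and 137 on the yw array, and the synaptic gene brp was below the floor on both. Signal at the 3' end over that at the 5' end grows where RNA is less intact or less fully copied. For 3 of 4 transcripts the ratio was higher on the tdf side, actin (52.3 on the array labelled tdf, 32.7 on the yw array), eIF-4a (56.6 for tdf, 45.5 for yw) and 18S rRNA (32.2 for tdf, 14.9 for yw), and lower for GAPDH (17.3 for tdf, 22.8 for yw). The 6 poly(A) controls above the floor on both arrays, foreign transcripts added ahead of the labelling step, had log2 ratios from -1.08 to -0.80. Those of the 9 hybridisation controls ran from -0.29 to 0.24. The part of the 3' to 5' differences and of the poly(A) difference in the ratios given here was not tested.

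Both small heat shock genes that could be read had lower signals on the array labelled tdf. Hsp26 had a signal of 1047 on the array labelled tdf, against 2514 on the yw array. It was 2.40-fold lower (log2 ratio -1.26), a difference larger than the SD between probe sets of a gene. Only 261 of the 7639 measured genes, 3.42%, had a lower ratio. Among the 500 measured genes nearest to Hsp26 in signal, the 5th and 95th percentiles of the log2 ratio were -0.97 and 0.86, so that Hsp26 lay below this range. Hsp27 had 471 on the array labelled tdf and 641 on the yw array, 1.36-fold lower with a log2 ratio of -0.44. That difference is smaller than the SD between probe sets of a gene, and 20.0% of measured genes had a lower ratio. The 2 genes thus had the same sign and unequal size, 0.82 apart in log2 ratio. Their median log2 ratio was -0.85. RNA came from whole embryos, where fewer cells of a type and less RNA per cell cannot be told apart.

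**Figure D1:**
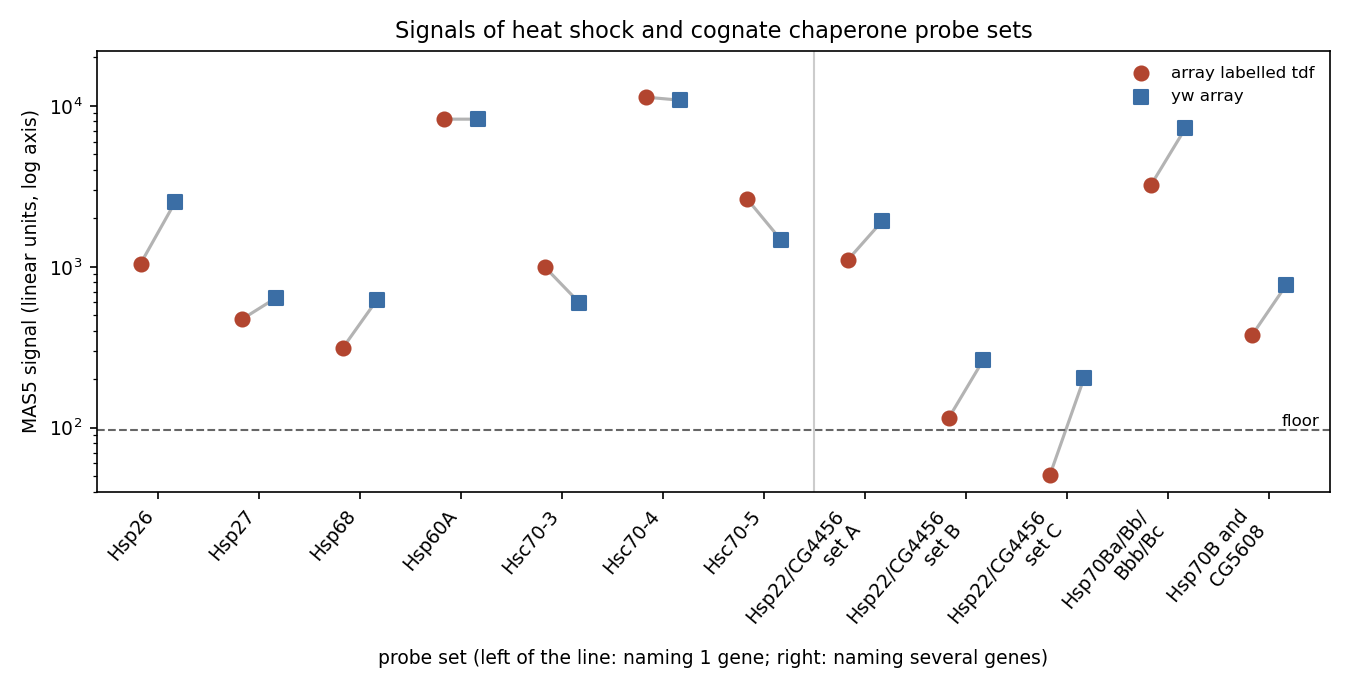
MAS5 signal (log axis) of each chaperone probe set on the array labelled tdf (circles, left) and the yw array (squares, right), 1 array per genotype, with the floor of 97.3 as a dashed line. Hsp26, Hsp27, Hsp68 and all 5 shared sets of Hsp22 and Hsp70 are lower on the array labelled tdf, Hsp60A and Hsc70-4 are nearly level, and Hsc70-3 and Hsc70-5 are higher.

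Hsp22, a small heat shock protein of mitochondria, is named by 3 probe sets, each of which also names CG4456, its neighbour in the gene order, which is also called Hsp67Bb. Their signal cannot be assigned to Hsp22 alone. The brightest had 1103 on the array labelled tdf, against 1923 on the yw array (log2 ratio -0.80). The second had 115 on the array labelled tdf and 263 on the yw array (log2 ratio -1.19). The third had 50.8 on the array labelled tdf, below the floor, and 205 on the yw array, so it was at least 2.11-fold lower. All 3 were lower on the array labelled tdf, and the second had a log2 ratio of -0.15 when the floor was set at the 60th percentile. With Hsp22 read from the brightest of them, the median of the small heat shock genes was -0.80.

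These genes stand together on chromosome arm 3L in the order Hsp67Bc, CG4456, Hsp22, CG4461, Hsp26, Hsp67Ba, Hsp23, Hsp27 in the RefSeq gene table. CG4461, which lies between Hsp22 and Hsp26 and itself encodes a small heat shock family protein, had 162 on the array labelled tdf and 122 on the yw array, 1.33-fold higher, a difference within the SD between probe sets of a gene. The genes outside the cluster had ratios of both signs. On the Hsp67Bc side, Fdx1 had 352 on the array labelled tdf and 611 on the yw array (log2 ratio -0.80), CG4452 had 644 (tdf) and 681 (yw), and mRRF1 had 521 on the array labelled tdf and 276 on the yw array (log2 ratio 0.92). On the Hsp27 side, CG4080 had 567 (tdf) and 721 (yw), a log2 ratio of -0.35.

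Hsp68 is a heat-inducible member of the Hsp70 family. It had 312 on the array labelled tdf, against 624 on the yw array, a 1.997-fold lower signal with a log2 ratio of -0.998. That lies just short of the 2-fold limit used for counting, and 6.21% of measured genes had a lower ratio. Among the 500 measured genes nearest to Hsp68 in signal, the 5th and 95th percentiles were -1.30 and 0.92, so Hsp68 lay within this range. When log2 ratios were centred on their median, that of Hsp68 came to -1.03 and passed the limit. The heat-inducible Hsp70 genes themselves are near-identical copies, and their probe sets name several of them together. The probe set for Hsp70Ba, Hsp70Bb, Hsp70Bbb and Hsp70Bc had 3216 on the array labelled tdf, against 7239 on the yw array, 2.25-fold lower. A dimmer set, which its name marks as shared by a gene family, also names CG5608. It had 375 on the array labelled tdf and 772 on the yw array, 2.06-fold lower. This set was under 2-fold with quantile normalisation (log2 ratio -0.96) and just under it with loess (-0.997). Neither set separates the gene copies, and both were brought in after their values were seen.

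Counting Hsp26, Hsp27, Hsp68 and the 5 shared sets of Hsp22 and Hsp70, all 8 probe sets of the classical heat-inducible genes were lower on the array labelled tdf, with log2 ratios from -1.26 to -0.44. Over all measured genes 47.6% had a ratio below 0. The 5 shared sets were added with their values in view, so the count is a description only. Sets of the same gene copies are not independent measurements. The transcription factor Hsf, through which heat acts on these genes, had 688 on the array labelled tdf and 837 on the yw array (log2 ratio -0.28), within the SD between probe sets. Not every heat-inducible chaperone gene was lower: DnaJ-1, the Hsp40 partner of Hsp70, had 2324 on the array labelled tdf and 1587 on the yw array, 1.46-fold higher.

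The 4 constitutive chaperones that could be read were level or higher on the array labelled tdf. Hsc70-4, the main cytosolic Hsp70 of unstressed cells, had 11329 on the array labelled tdf and 10842 on the yw array. Its log2 ratio was 0.06, and it was -0.09 under loess and -0.15 under quantile normalisation, so it has no settled sign. Hsp60A had 8268 on the array labelled tdf and 8266 on the yw array, a log2 ratio of 0.00028 that was -0.03 under centring, -0.14 under loess and -0.17 under quantile normalisation. For both bright genes the arrays differed by far less than the SD between probe sets.

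Hsc70-5, the mitochondrial Hsp70 that pulls imported proteins into the matrix, had 2651 on the array labelled tdf, against 1464 on the yw array. It was 1.81-fold higher (log2 ratio 0.86), and 438 measured genes had a higher ratio. The 95th percentile of the 500 genes nearest in signal was 0.85, so Hsc70-5 stood at the upper edge of that range. Hsc70-3 had 998 on the array labelled tdf and 600 on the yw array, 1.66-fold higher with a log2 ratio of 0.73. That value comes from a probe set whose name marks it as shared within a gene family. The other, plain probe set of Hsc70-3 had 12.8 on the array labelled tdf and 5.60 on the yw array, below the floor on both, so Hsc70-3 was not measured when only plain probe sets were used. The median log2 ratio of the 4 constitutive genes was 0.40. It was 0.06 without Hsc70-3 and 0.73 over the Hsc70 cognates alone.

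**Figure D2:**
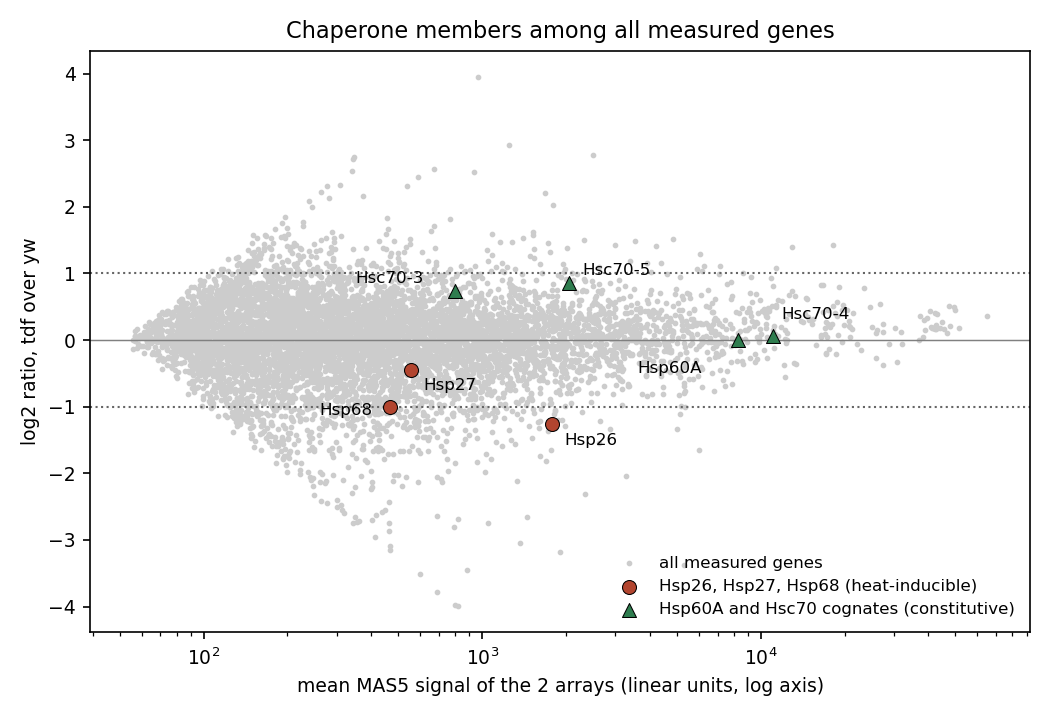
Log2 ratio of tdf over yw against the mean signal of the arrays (log axis) for all 7639 measured genes (grey), with the heat-inducible members as circles and the constitutive members as triangles. Dotted lines mark 2-fold. Hsp26 lies below the lower line, Hsp68 on it, and Hsc70-5 below the upper line among genes of similar brightness.

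The heat-inducible members all had lower ratios than those classed as constitutive, although Hsp60A and Hsp83 of that class can also be induced by stress. The highest log2 ratio among Hsp26, Hsp27 and Hsp68 was -0.44, and the lowest among Hsp60A, Hsc70-3, Hsc70-4 and Hsc70-5 was 0.00028. The median of the small heat shock genes was 1.25 below that of the constitutive chaperones, and 0.92 below it with plain probe sets only. With 1 array per genotype this difference was not tested, and it rests on 2 genes against 4. By the 2-fold rule 1 of the 7 members, Hsp26, was lower, beside 6.19% of all measured genes, and none was higher, beside 3.60%. Over the 7 members together the median log2 ratio was 0.00028, against 0.03 over all measured genes.

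**Figure D3:**
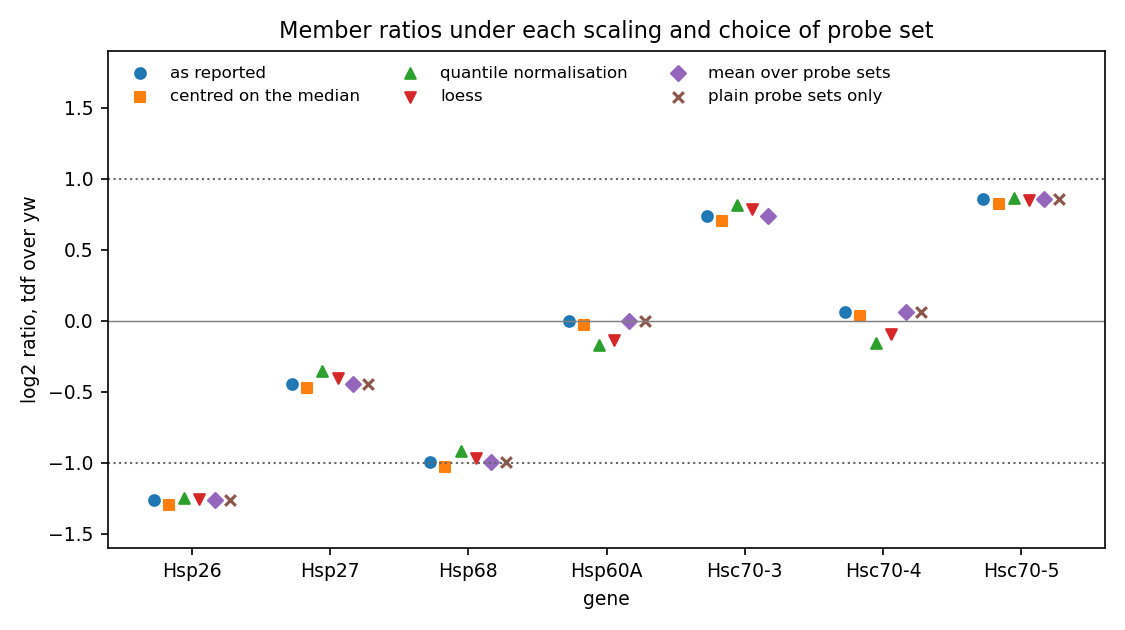
Log2 ratio of tdf over yw for each member as reported and under 5 other treatments of the signals, with dotted lines at 2-fold. Hsp26 stays below -1 and Hsp27 below 0 in each, Hsp68 stands at the 2-fold line, Hsp60A and Hsc70-4 change sign near 0, and Hsc70-3 and Hsc70-5 stay above 0.

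Further chaperones and their partners, 61 genes in 6 lists, were set beside the members, and 39 of them were measured. By the 2-fold rule 2 were higher, beside 3.60% of all measured genes, and 1 was lower, beside 6.19%. The median log2 ratio of the 39 was -0.12. Among the other small heat shock genes 4 of 8 were measured, with a median of 0.47. The brightest, l(2)efl, a small heat shock protein related to the alpha-crystallins, had 11550 on the array labelled tdf, against 5730 on the yw array. It was 2.02-fold higher, the opposite direction to Hsp26, but fell under 2-fold with centring (0.98), loess (0.87) and quantile normalisation (0.84). CG13133 had 195 on the array labelled tdf and 134 on the yw array. CG7409 had 61.8 on the array labelled tdf, below the floor, and 98.4 on the yw array, barely above it, so its ratio is a bound. Small heat shock genes were thus seen on both sides of 0.

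The Hsp90 family, co-chaperone and J-domain genes, whose products act in more than the cytosol, were mostly near level. Of the 10 Hsp90 family and co-chaperone genes, 3 had ratios above 0 and 7 below, with a median of -0.15. The exception in size was Fkbp59, an immunophilin that binds Hsp90, with 1583 on the array labelled tdf and 772 on the yw array, 2.05-fold higher. Gp93, the Hsp90 of the endoplasmic reticulum and the brightest of the list, had 4427 on the array labelled tdf and 3989 on the yw array. Stip1, which links Hsp70 to Hsp90, had 1762 (tdf) and 1940 (yw), and the nucleotide exchange factor Hsp110 had 605 on the array labelled tdf and 661 on the yw array. Among 11 measured J-domain genes, whose products stimulate the Hsp70 ATPase, the median was -0.20. Of these, mrj was 2.32-fold lower, with 1590 on the array labelled tdf, against 3689 on the yw array. Next to it wus had 424 on the array labelled tdf and 802 on the yw array, 1.89-fold lower, while the brightest, Droj2, had 3669 (tdf) and 4553 (yw), a log2 ratio of -0.31.

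The measured partners of the organelle chaperones had ratios closer to 0 than those of Hsc70-5 and Hsc70-3. In mitochondria, Roe1, the exchange factor of Hsc70-5, had 245 on the array labelled tdf and 313 on the yw array (log2 ratio -0.36). CG11267, the Hsp10 that caps the Hsp60 chaperonin, had 6363 on the array labelled tdf and 5109 on the yw array (log2 ratio 0.32). The mitochondrial Hsp90 Trap1 had 1881 (tdf) and 1373 (yw), a log2 ratio of 0.45. The mitochondrial list had a median of -0.10, with 5 of 9 genes that have a probe set measured, since Hsp60B, Hsp60C, Hsp60D and CG9920 were below the floor on both arrays. In the endoplasmic reticulum, the median of 8 measured folding genes was -0.15 and none was 2-fold apart. The disulphide isomerase ERp60, the brightest, had 11636 on the array labelled tdf and 14724 on the yw array, a log2 ratio of -0.34 that was -0.59 under quantile normalisation. The disulphide isomerase family gene CaBP1 had 2502 (tdf) and 3204 (yw), a log2 ratio of -0.36. Grp170, an Hsp70-like partner of Hsc70-3, had 452 on the array labelled tdf and 406 on the yw array.

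**Figure D4:**
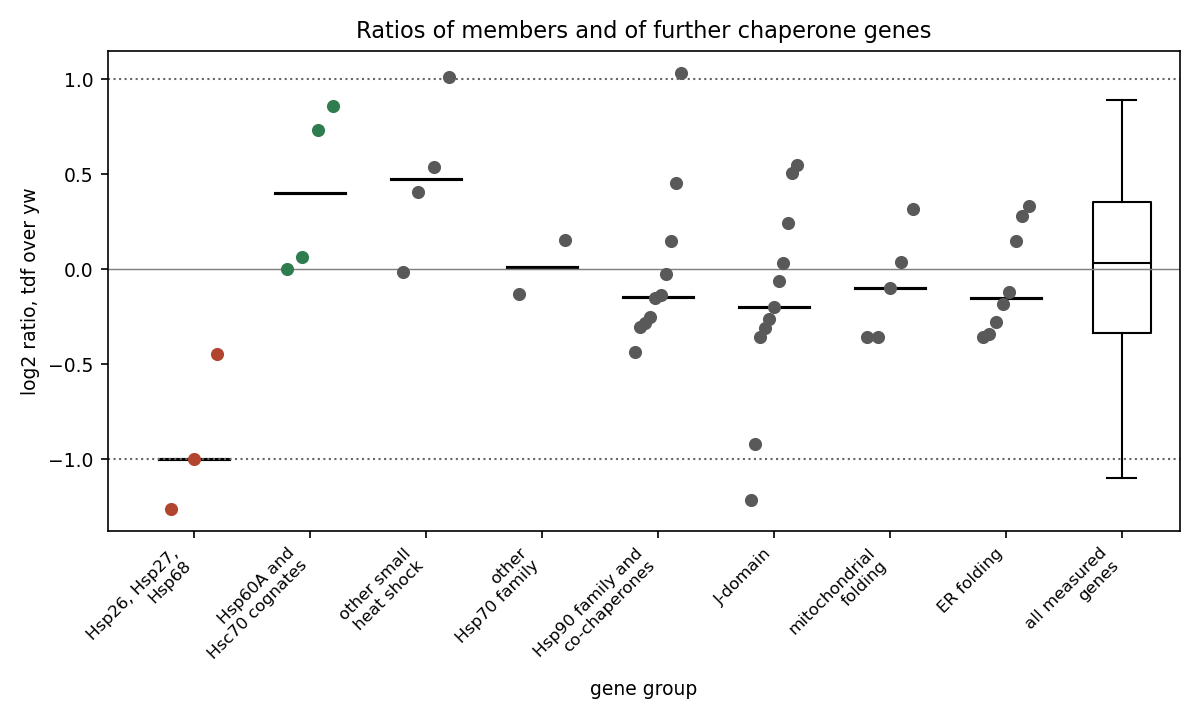
Log2 ratio of tdf over yw for measured genes of each chaperone group (points) with the group median (bar), and for all 7639 measured genes as a box of quartiles with whiskers at the 5th and 95th percentiles. Ratios of CG7409 and CG2887 are bounds because 1 array is below the floor. The heat-inducible members lie below the other groups' medians, while most further groups lie near 0.

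Several transcripts that mothers load into the egg, or that serve the early divisions, differed strongly between the arrays. Of 12 such markers, chosen with their earlier results on these arrays known, 11 had a probe set and 8 were measured. By the 2-fold rule 7 of the 8 were lower, beside 6.19% of all measured genes, and because of that choice the count is a description only. For 4 of the 8 the array labelled tdf was below the floor, so their ratios are bounds. The median log2 ratio was -3.28 (-2.46 with the floor at the 60th percentile). The summed signal of the 11 was 5826 on the array labelled tdf and 22227 on the yw array. The mitotic cyclin CycB had 928 on the array labelled tdf and 9664 on the yw array. The gene smg encodes an RNA-binding protein that promotes clearance of maternal mRNA, Hsp83 mRNA among its targets. It had 73.5 on the array labelled tdf, below the floor, and 1528 on the yw array. The defining germ plasm transcripts nanos, osk and pgc were below the floor on both arrays, and gcl was the measured exception with 3941 on the array labelled tdf and 3467 on the yw array. The 7 measured markers of the late embryo had a median log2 ratio of 0.23 (0.0038 under loess and 0.03 under quantile normalisation), and none was 2-fold apart. The signals of all 8 summed to 164096 on the array labelled tdf and 131382 on the yw array. Hsp26 and Hsp27 are themselves maternally loaded, and the part of these transcripts in the ratios of Hsp26, Hsp27, Hsp22 and Hsp70 probe sets was not tested.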

How the data were processed

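The authors deposited linear intensities for every probe set, summarised with MAS5 per the submitters' processing notes. The sources used here do not give its version and settings. When the lowest and highest 2% were left out, the mean was 500.1 on both arrays. Of 14010 probe sets, 12442 named 1 gene in the platform annotation. For 12393 of these the symbol was taken by gene ID from the RefSeq table of Release 6 plus ISO1 MT, whether or not it differed. A gene was read from its probe set of highest mean signal. Signals were raised to the floor before log2 ratios (tdf over yw) were taken. No test was possible with 1 array per genotype, and array number limits the precision. The alternatives were centring, quantile normalisation, loess (span 0.3), floors at the 25th and 60th percentiles, all probe sets averaged, plain probe sets only, and limits of 1.5-fold and 3-fold. Members and lists were chosen with earlier results of these data known. Named were the members and, in each further chaperone list, the gene of largest ratio in size and the brightest; other genes were picked with their values in view. Log2 ratios without rescaling and under centring, quantile normalisation and loess were tested on simulated data, with changes set in 200 bright genes. The simulated noise was far smaller than the SD between probe sets, so this checks the calculation and not the noise of these arrays. No change was set in dimmer genes, Hsp68 among them. The other floors, choices of probe set and limits were not tested in that way. Calculations ran in Python 3.11.15 with statsmodels 0.14.6, scipy 1.17.1, pandas 2.3.3 and numpy 2.4.6.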

Additional observations from a re-analysis of the deposited data

Results flagged for a closer look

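Leaving aside the shared sets of Hsp22 and Hsp70, 3 probe sets that name a chaperone gene together with another gene, and from which no gene was read, had a signal above the floor and above the yw array on the array labelled tdf. The set naming Hsp60B and Ncc69 had 1049 on the array labelled tdf and 682 on the yw array, while the set naming Hsp60B alone had 23.1 (tdf) and 16.0 (yw). The brighter set naming CG42568 and DnaJ-60 had 554 on the array labelled tdf and 395 on the yw array, while its dimmer set had 92.6 (tdf) and 134 (yw). The set naming Hsc70-4 and Acbp3, marked as shared by a gene family, had 154 on the array labelled tdf and 97.9 on the yw array.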

How the results depend on the processing

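No paired analysis was possible because each genotype has 1 array. Hsp26 kept a log2 ratio from -1.30 to -1.25 and Hsp27 from -0.48 to -0.35 over all scalings, floors and choices of probe set tried. Hsc70-5 kept one from 0.82 to 0.86, and Hsc70-3 from 0.70 to 0.81 where it was measured. None of these scalings was anchored on the poly(A) controls. Hsp68 ranged from -1.03 to -0.92, so 2 members in place of 1 were at least 2-fold lower under centring. At a limit of 1.5-fold 2 members were lower and 2 higher, and at 3-fold 0 were lower. Over all genes, 607 were at least 2-fold higher with the floor at the 25th percentile, and 119 higher and 267 lower with the floor at the 60th. At 1.5-fold 1005 genes were higher and 1171 lower, and at 3-fold 35 were higher and 136 lower. The small minus constitutive difference ran from -1.26 to -0.92, and the small heat shock median without Hsp26 was -0.44. Dim probe sets depend on the floor: the dimmest shared Hsp22 set was at -2.01 with the floor at the 25th percentile. The median of the other small heat shock genes was 1.01 with the floor at the 60th percentile, where l(2)efl alone remained. Hsp22, read from a shared set, and the median without Hsc70-3 were added after the data were examined.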
